A study of Caenorhabditis elegans with 10 samples.

Results

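The genes described here run the methionine cycle and make phosphatidylcholine by methylation in Caenorhabditis elegans, a small nematode. They were chosen by name, as a list of 10 genes, and were read on every probe set whose annotation names 1 of them and no other gene. Of the 10, 8 had such a probe set, among the 17118 genes that could be read this way (11 of the 22548 probe sets tested): sams-1, sams-4, sams-5, metr-1, ahcy-1, pmt-1, pmt-2 and mel-32. No value is given for gnmt-1, which matched no name in the annotation used, or for sams-3, whose probe set is annotated to sams-2 as well. Total RNA came from whole young adult worms of N2 (Bristol), the wild type, and of gas-1 (fc21), which carries a missense mutation in a subunit of complex I of the mitochondrial electron transport chain. Both strains were grown on OP50 bacteria and sorted alive by size into pools of 1000 adults, and RNA of 500 to 1000 of them was hybridised to 1 Affymetrix array for each of 5 biological replicates per strain. The comparison was made to find metabolic pathways downstream of the mutation. RNA of whole animals does not separate tissues, so fewer cells of a type and less RNA per cell cannot be told apart in any value below.

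The methionine cycle supplies methyl groups. S-adenosylmethionine synthetases (the sams genes) turn methionine into S-adenosylmethionine, called SAM, methyltransferases use SAM and leave S-adenosylhomocysteine, the hydrolase AHCY-1 splits that into homocysteine and adenosine, and the vitamin B12-dependent methionine synthase METR-1 makes methionine again with a methyl group from folate. MEL-32, serine hydroxymethyltransferase, loads folate with the carbon of serine. A large user of SAM in nematodes is the methylation of phosphoethanolamine to phosphocholine, the head group of phosphatidylcholine, by PMT-1 for the first methyl group and PMT-2 for the later ones, and loss of sams-1 is known to lower phosphatidylcholine in worms and to raise fat stores.

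All values are log2 signals as deposited, and a difference is the mutant mean less the wild-type mean on that scale, with its standard error (SE) from limma. A probe set was called where the limma p, adjusted by the Benjamini-Hochberg method over all 22548 probe sets, was under 0.05, and "rose" and "fell" are used for called values. A gene with several probe sets is counted on the one brightest on average. Array medians were between 6.22 and 6.61. Of the arrays, 4 stood apart across the genome, wild-type replicates 1 and 5 and mutant replicates 4 and 5, as was known from earlier results of these data. For the genes described here it was wild-type replicate 5 that differed from its group: it was the lowest wild-type array on 10 of the 11 probe sets. Its median, 6.225, was also the lowest of the 10 arrays, and the share of all probe sets on which it was lowest was not taken. The mean of 19 sperm markers was 8.49 on that array against 10.86 to 10.94 on the other wild-type arrays, and 7.06 to 7.17 on mutant replicates 1 to 3 against 9.80 and 9.87 on replicates 4 and 5. Markers of intestine, muscle, hypodermis, neurons and oocytes were present in every array, with list means between 7.36 and 12.43. The gas-1 transcript itself measured 11.11 ± 0.21 in gas-1 animals and 10.44 ± 0.19 in N2 (SD, n = 5) on its brighter probe set. A missense allele leaves a transcript, so this level does not check the labels.

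The transcript of methionine synthase fell in the mutant, and that of the first phosphocholine enzyme rose. Of the 8 genes, metr-1 and ahcy-1 fell, pmt-1 rose and the other 5 did not pass. Over all 17118 genes, 4.47% fell and 7.55% rose (12% called in all, and 11.8% of probe sets). By probe set, 3 of 11 fell and 1 rose, where 4.28% and 7.54% of all probe sets did so, and 10 of the 11 were lower in mean in the mutant. The median difference of the 8 genes was −0.23, against 0.00 over all genes. Without wild-type replicate 5, 5 genes fell (sams-1, sams-5, metr-1, ahcy-1 and pmt-2), where 7.53% of all genes fell, and pmt-1 rose, where 8.34% did. In that fit 8 of the 11 probe sets fell and 1 rose, where 7.14% and 8.28% of all probe sets did so. Without the 4 arrays that stood apart, sams-1, sams-5, metr-1 and pmt-2 fell, where 11.5% of all genes fell, and pmt-1 rose, where 10.4% did.

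**Figure D1:**
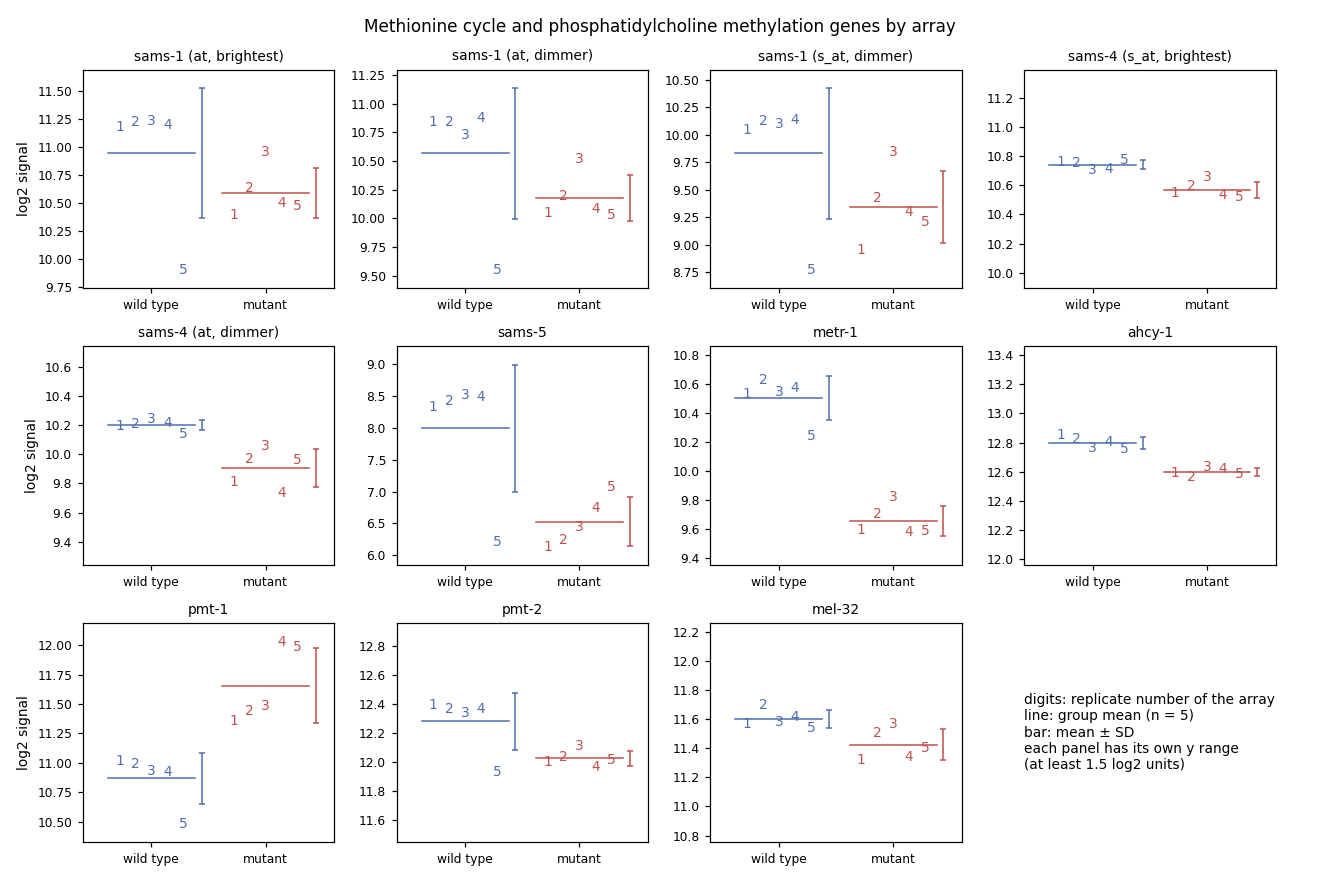
Log2 signal (y axis) of the 11 probe sets in wild-type and mutant arrays, each digit being the replicate number of 1 array, with the group mean (line) and mean ± SD (bar, n = 5). On metr-1, ahcy-1 and both sams-4 probe sets every mutant array is below every wild-type array, on pmt-1 every mutant array is above, and wild-type replicate 5 lies among or below the mutant arrays on sams-1, sams-5 and pmt-2.

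The largest difference past the test among these genes was in metr-1 (R03D7.1). Its log2 signal was 10.53, 10.63, 10.55, 10.57 and 10.24 in wild-type replicates 1 to 5 and 9.60, 9.71, 9.82, 9.59 and 9.59 in mutant replicates 1 to 5. The groups did not overlap, and wild-type replicate 5, the lowest of its group, was above the highest mutant array. The means were 9.66 ± 0.10 in gas-1 animals and 10.50 ± 0.15 in N2 (SD, n = 5), a 1.79-fold lower level in the mutant (difference −0.84, SE 0.09, limma adjusted p = 0.000199, exact permutation p = 0.00794, the smallest that 5 arrays against 5 allow). It fell in each of the 10 fits that left out 1 array, with differences between −0.91 and −0.81. Intestine marker means were lower in every mutant array than in wild-type replicates 1 to 4. The mean of 11 was 10.75 to 10.95 on mutant replicates 1 to 3, and 11.19 and 11.21 on mutant replicates 4 and 5. In the wild type it was 11.25 to 11.27 on replicates 1 to 4 and 11.04 on replicate 5, and 2 of the 11 fell. Both in this mean and in metr-1, wild-type replicate 5 was the lowest wild-type array. Mutant replicates 4 and 5 were above that array in this mean and below it in metr-1. Sperm marker means were also lower in every mutant array than in wild-type replicates 1 to 4. The part of intestine and sperm content in the values of metr-1, ahcy-1, pmt-2 and the sams genes was not tested.

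The hydrolase gene ahcy-1 (K02F2.2), which removes the product that inhibits methyltransferases, differed by a small and even step. It was at 12.85, 12.83, 12.76, 12.80 and 12.76 in wild-type replicates 1 to 5 and at 12.59, 12.57, 12.64, 12.62 and 12.59 in the mutant replicates. No mutant array reached a wild-type array, with a range of 0.069 within the mutant. The difference was −0.20 (SE 0.06, the level in the wild type being 1.15-fold that of the mutant, limma adjusted p = 0.0433, exact permutation p = 0.00794). The call was near the threshold: adjusted p was between 0.0651 and 0.109 when any array other than wild-type replicate 5 was left out, and 0.133 under quantile normalization. Serine hydroxymethyltransferase mel-32 (C05D11.11) did not pass, at 11.42 ± 0.11 in gas-1 animals and 11.60 ± 0.06 in N2 (SD, n = 5, difference −0.17, SE 0.07, limma adjusted p = 0.155). Its groups overlapped, since mutant replicate 3 (11.569) was above wild-type replicates 1 (11.565) and 5 (11.538).

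The SAM synthetase genes were lower in mean on all 6 of their probe sets, and the values of sams-1 and sams-5 shifted most with wild-type replicate 5. On its brightest probe set sams-1 (C49F5.1), the synthetase gene tied to phosphatidylcholine in worms, was at 11.18, 11.22, 11.23 and 11.19 in wild-type replicates 1 to 4 and at 9.91 in replicate 5. The mutant arrays were at 10.39, 10.64, 10.96, 10.50 and 10.47. The mutant values lay below those of the first 4 wild-type arrays and above the fifth, so the groups overlapped. Over all arrays the difference was −0.35 (SE 0.25, limma adjusted p = 0.442), and without wild-type replicate 5 it was −0.61 (SE 0.11, 1.53-fold lower, limma adjusted p = 0.0054). With all arrays kept it passed under array weights (adjusted p = 0.0373). On the other sams-1 probe sets too the mutant arrays lay below wild-type replicates 1 to 4 and above replicate 5, with differences of −0.39 and −0.49 over all arrays (adjusted p = 0.366 and 0.308) and −0.65 and −0.75 without that replicate (adjusted p = 0.00311 and 0.00968).

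The difference of sams-5 (T13A10.11), another synthetase gene, was the largest in size and the most uneven. Wild-type replicates 1 to 4 were at 8.33, 8.43, 8.52 and 8.48, and replicate 5 was at 6.205. Mutant replicates 1 to 5 were at 6.13, 6.24, 6.45, 6.74 and 7.08, near the medians of their arrays, which were 6.37 to 6.58. Wild-type replicate 5 therefore lay between mutant replicates 1 and 2. Over all arrays the difference was −1.46 (SE 0.42, 2.76-fold lower), and it missed the threshold at limma adjusted p = 0.0501. With all arrays kept it passed under quantile normalization (adjusted p = 0.0207), centring on array medians (0.0189), both filters on dim probe sets (0.0378 and 0.0327), an intensity trend (0.0395), array weights (0.000226) and the mean of probe sets (0.0494). It did not pass with the replicate number as a block (adjusted p = 0.137). Nor did it pass when any array other than wild-type replicate 5 was left out (adjusted p = 0.0598 to 0.119). The difference was −1.91 without wild-type replicate 5 (SE 0.18, 3.76-fold, adjusted p = 0.000148) and was 4.59-fold without the 4 arrays that stood apart (SE 0.09). Sperm marker means were also low on the arrays where sams-5 was low: 8.49 on wild-type replicate 5 and 7.06 to 7.17 on mutant replicates 1 to 3, while mutant replicates 4 and 5, higher in sams-5, were at 9.87 and 9.80. Of the 19 sperm markers, 2 were themselves called (both fell), and the part of sperm content in the sams-5 values was not tested.

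For sams-4 (C06E7.3), which neighbours sams-3 in the RefSeq annotation, the groups were apart on both probe sets. The dimmer probe set was at 10.14 to 10.24 in the wild type and 9.74 to 10.06 in the mutant and fell (difference −0.29, SE 0.07, 1.23-fold lower, limma adjusted p = 0.0286, exact permutation p = 0.00794). The brighter one was at 10.71 to 10.77 and 10.52 to 10.65 and did not pass (−0.17, SE 0.06, limma adjusted p = 0.0866, exact permutation p = 0.00794). Here wild-type replicate 5 lay close to its group, the lowest wild-type array on the dimmer probe set and the highest on the brighter one. The call on the dimmer probe set ended in 5 of the 10 fits that left out 1 array, with adjusted p up to 0.0768, and under centring on array medians (0.0919). The brighter probe set has the suffix _s_at, which marks probes that may be shared between transcripts, as have the probe sets of sams-5, pmt-1, mel-32 and 1 of sams-1. Over the 11 probe sets, no overlap with the mutant lower was seen on 4, where 4.67% of all probe sets had it, and with the mutant higher on 1, where 8.27% did.

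**Figure D2:**
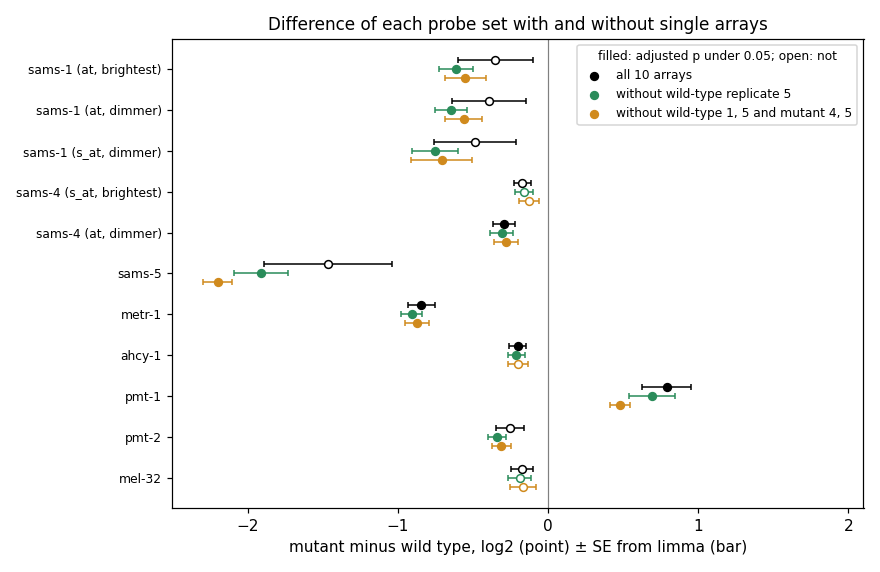
Log2 difference, mutant less wild type (x axis, point), with the SE from limma (bar) for the 11 probe sets (y axis), over all 10 arrays, without wild-type replicate 5, and without wild-type replicates 1 and 5 and mutant replicates 4 and 5. Filled points had an adjusted p under 0.05. The sams-1, sams-5 and pmt-2 points are open over all arrays and filled in the other settings, and the metr-1 and pmt-1 points are filled in all of them.

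The phosphoethanolamine methyltransferases moved apart. Signal of pmt-1 (ZK622.3), the enzyme of the first methylation, was 11.02, 10.99, 10.93, 10.92 and 10.48 in wild-type replicates 1 to 5 and 11.35, 11.44, 11.48, 12.03 and 11.98 in the mutant replicates. Every mutant array was above every wild-type array, and mutant replicates 4 and 5 were the highest. The gene rose 1.73-fold (11.66 ± 0.32 against 10.87 ± 0.22, SD, n = 5, difference 0.79, SE 0.16, limma adjusted p = 0.0105, exact permutation p = 0.00794), and it rose in all 10 fits that left out 1 array (0.69 to 0.86). Without the 4 arrays that stood apart the difference was 0.48 (SE 0.07, 1.39-fold, adjusted p = 0.00262). Body wall muscle and hypodermis markers were also highest on mutant replicates 4 and 5: the mean of 8 muscle markers was 10.73 and 10.76 on mutant replicates 4 and 5, 9.75 to 9.86 on mutant replicates 1 to 3 and 9.23 on wild-type replicate 5, and that of 6 hypodermis markers was 9.89 and 9.90, 9.33 to 9.42, and 8.87. On wild-type replicates 1 to 4, where pmt-1 was lower than on mutant replicates 1 to 3, the muscle mean was 10.04 to 10.27 and the hypodermis mean 9.28 to 9.43. Their part in the pmt-1 values was not tested.

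For pmt-2 (F54D11.1), which adds the later methyl groups, the direction was the opposite. Wild-type replicates 1 to 4 were at 12.39, 12.37, 12.34 and 12.37, replicate 5 was at 11.93, and the mutant arrays were at 11.997, 12.035, 12.108, 11.969 and 12.017. As for sams-1, wild-type replicate 5 was below all mutant arrays and the other wild-type arrays were above them. The difference over all arrays did not pass (−0.25, SE 0.10, limma adjusted p = 0.12), and it passed without wild-type replicate 5 (−0.34, SE 0.06, 1.27-fold lower, limma adjusted p = 0.00404).

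Differences between 2 genes on the same array do not change when a constant is added to all log2 values of that array. Other normalizations can move them: under quantile normalization the change of metr-1 minus ahcy-1 was −0.72 in place of −0.64. For pmt-1 minus pmt-2 it was 1.01 in place of 1.04. Exact permutation tests were run on 6 pairs of the measured genes. The level of such a difference has no meaning of its own, since it mixes the brightness of different probes, and only its change between the strains is read. The difference pmt-1 minus pmt-2 was the steadiest in the wild type, at −1.45 to −1.37 on all 5 arrays, replicate 5 included. It was −0.64, −0.60, −0.63, 0.06 and −0.04 in mutant replicates 1 to 5. The ratio of the 2 transcripts was thus 2.06-fold higher in the mutant (log2 1.04, 2-sided exact permutation p = 0.00794, 0.0119 adjusted over the 6 pairs).

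In 3 of the pairs metr-1 was set against another gene, and it was lower relative to each. Against ahcy-1 the within-array difference changed by −0.64 and against mel-32 by −0.67, both with exact permutation p = 0.00794 (0.0119 adjusted). For metr-1 minus mel-32 the mutant arrays were at −1.81 to −1.72 (SD 0.036, n = 5), against −1.30 to −1.03 in the wild type. Against sams-1 the change was −0.49 (exact permutation p = 0.00794, 0.0119 adjusted), and −0.30 without wild-type replicate 5, which stood at 0.34 where the rest of the wild type was at −0.68 to −0.60.

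Within the synthetases, sams-5 was lower relative to sams-1 in the mutant. The difference sams-1 minus sams-5 was 2.71 to 2.84 on wild-type replicates 1 to 4, 3.70 on replicate 5, and 4.26, 4.40, 4.51, 3.76 and 3.40 on the mutant arrays, where replicate 5 was below that wild-type array. The change was 1.11 (exact permutation p = 0.0159, 0.019 adjusted). For sams-1 minus sams-4 the change was −0.18 and did not pass (exact permutation p = 0.619), and without wild-type replicate 5 it was −0.45 (exact permutation p = 0.0159, 0.0159 adjusted).

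**Figure D3:**
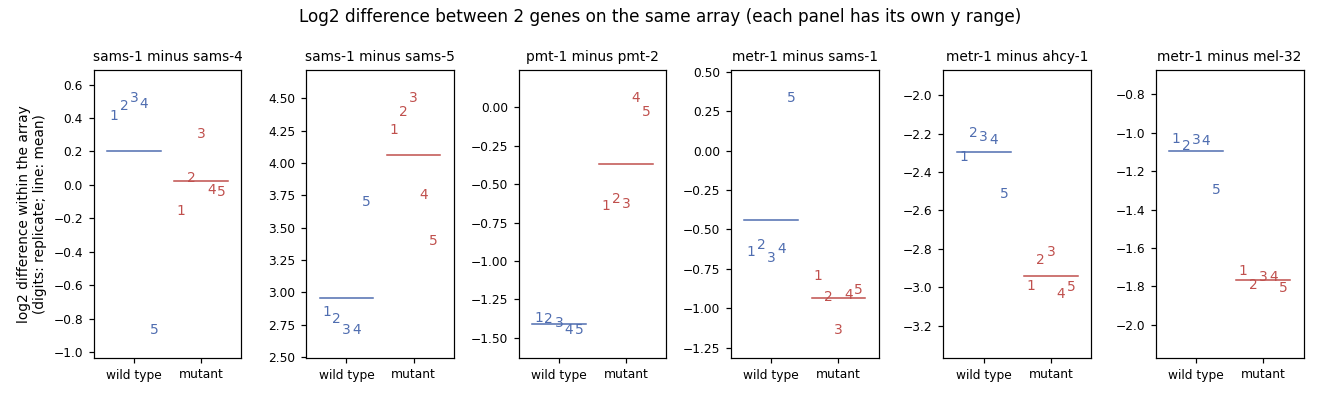
Log2 difference between 2 genes on the same array (y axis) for 6 pairs, in wild-type and mutant arrays, each digit being the replicate number of 1 array and each line a group mean. The groups are apart for pmt-1 minus pmt-2 and for metr-1 against sams-1, ahcy-1 and mel-32, and wild-type replicate 5 stands away from its group in the pairs with sams-1.

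Genes next to the cycle were read from 6 lists. Among 19 measured genes of folate and vitamin B12 handling, 4 rose and 3 fell, with a median difference of 0.10. Over all genes 7.55% rose and 4.47% fell. Genes of both reductases that serve methionine synthase fell: mthf-1, the reductase that makes methylfolate (10.30 ± 0.03 against 10.75 ± 0.10, SD, n = 5, difference −0.46, SE 0.07, 1.37-fold lower, limma adjusted p = 0.00165), and mtrr-1, the reductase that keeps methionine synthase active (difference −0.29, SE 0.09, adjusted p = 0.0498), where wild-type replicate 5 (9.72) was below mutant replicate 3 (9.74). The mthf-1 call held in all 10 fits that left out 1 array, and the mtrr-1 call in 3 (adjusted p up to 0.124). Mutant arrays of mthf-1 were at 10.24 to 10.33 and wild-type arrays at 10.57 to 10.81, without overlap. The third was pmp-5, an ABC transporter gene, at 8.91, 9.48, 9.74, 6.99 and 6.96 in the mutant replicates and 9.63 to 10.66 in the wild type (−1.98, SE 0.56, adjusted p = 0.0456), where mutant replicate 3 overlapped the wild type and replicates 4 and 5 were far below. Its call held in 3 of those 10 fits (adjusted p up to 0.102).

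The genes of that list that rose were K07E3.4 (0.91, SE 0.17, 1.88-fold, limma adjusted p = 0.00661), gcst-1, the aminomethyltransferase of glycine cleavage (0.57, SE 0.10, 1.48-fold, adjusted p = 0.00525), the ABC transporter gene mrp-5 (0.53, SE 0.14, adjusted p = 0.0372) and the folate enzyme gene dao-3 (0.43, SE 0.08, adjusted p = 0.00751). None of these 4, taken because they were called, overlapped between the strains. Of all probe sets, 8.27% had no overlap with the mutant higher. K07E3.4, gcst-1, mrp-5 and dao-3 were each highest on mutant replicates 4 and 5. Without the 4 arrays that stood apart, mrp-5 did not pass (0.25, SE 0.08, limma adjusted p = 0.0544). In that fit K07E3.4 (0.58, 1.49-fold), gcst-1 (0.39) and dao-3 (0.32) still rose. The mrp-5 call held in 3 of the 10 fits that left out 1 array (adjusted p up to 0.0856), and the calls of the other genes in all 10. The list's other glycine cleavage genes did not pass: gldc-1 (−0.11) and gcsh-1 (−0.65) were lower and gcsh-2 (0.24) higher. Without wild-type replicate 5, gldc-1 and gcsh-1 fell (−0.34 and −0.93, limma adjusted p = 0.046 and 0.00346), and gcsh-2 did not pass (0.21, limma adjusted p = 0.0701). On the exit from homocysteine to cysteine, 2 of 4 genes rose and 0 fell, where 7.55% and 4.47% of all genes did so. Cystathionine beta-synthase cbs-1 was at 7.07 to 8.35 in the mutant and 6.04 to 6.91 in the wild type (1.30, SE 0.29, 2.47-fold, limma adjusted p = 0.0166). It was also highest on mutant replicates 4 and 5, and without the 4 arrays that stood apart its difference was 1.05 (SE 0.07). The cystathionine gamma-lyase gene cth-2 was at 11.20 to 11.55 against 10.30 to 10.56 (0.97, SE 0.09, 1.96-fold, adjusted p = 6.38e-05). The second lyase gene, cth-1, had a difference of 1.01 (SE 0.30) and did not pass (adjusted p = 0.0531). Its groups did not overlap, at 7.54 to 8.63 in the mutant and 6.13 to 7.51 in the wild type. It passed in 2 of the 10 fits that left out 1 array, including that without wild-type replicate 5 (0.75, limma adjusted p = 0.0457). Without the 4 arrays that stood apart it passed too (1.04, limma adjusted p = 0.000244). At an unadjusted limma p under 0.05, 3 of these 4 genes were higher and 0 lower, where 14.4% of all genes were higher and 11.3% lower.

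The remaining lists are read against the 12% of all genes that were called. Of 15 genes for other routes to phospholipid head groups, the choline kinase family gene ckb-1 rose (0.71, SE 0.19, limma adjusted p = 0.0377) and ckb-4 fell (−0.47, SE 0.08, adjusted p = 0.00334). The ckb-1 call held in 2 of the 10 fits that left out 1 array (adjusted p up to 0.0872) and the ckb-4 call in all 10. The gene pcyt-1, whose enzyme turns phosphocholine into its CDP form, had a difference of 0.33 (SE 0.10) and did not pass (adjusted p = 0.052). Of 28 methyltransferases that use SAM, 1 rose, damt-1 (0.35, SE 0.10, adjusted p = 0.0436), and 3 fell: the amine methyltransferase gene anmt-2 (−0.44, SE 0.12, adjusted p = 0.0376), the fibrillarin gene fib-1 (−0.43, SE 0.11, adjusted p = 0.032) and dph-5 (−0.36, SE 0.10, adjusted p = 0.0488). All 4 overlapped between the strains, and none was called in 5 of the 10 fits that left out 1 array, where 9 or 10 genes of the list had an unadjusted limma p under 0.05. The median difference over these 28 genes was −0.08.

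Of 3 polyamine genes, ornithine decarboxylase odc-1 fell (−1.40, SE 0.35, 2.64-fold lower, limma adjusted p = 0.0274). It was at 9.51 to 9.58 in wild-type replicates 1 to 4, 8.04 in replicate 5, 7.31 to 7.49 in mutant replicates 1 to 3 and 8.46 and 8.45 (8.465 and 8.454) in mutant replicates 4 and 5, and these sets of arrays stand in the same order by sperm marker mean, whose part was not tested. The call was lost in 7 of the 10 fits that left out 1 array, and kept without wild-type replicate 5. SAM decarboxylase smd-1, which draws SAM into polyamines, had a difference of −0.42 (SE 0.12, adjusted p = 0.0521) and did not pass. Of 9 regulators, nhr-114, a nuclear hormone receptor gene known to activate methionine cycle genes when vitamin B12 is scarce, fell (7.25 ± 0.27 against 8.02 ± 0.30, SD, n = 5, −0.78, SE 0.17, 1.71-fold lower, adjusted p = 0.0132). Wild-type replicate 5 (7.49) lay below mutant replicate 3 (7.62), and the other wild-type arrays were at 8.10 to 8.20. No regulator was called higher, and at an unadjusted limma p under 0.05 2 of the 9 were higher and 1 lower, where 14.4% and 11.3% of all genes were. The lipid regulator gene sbp-1, which responds to low phosphatidylcholine, had a difference of 0.34 (SE 0.14, adjusted p = 0.164).

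**Figure D4:**
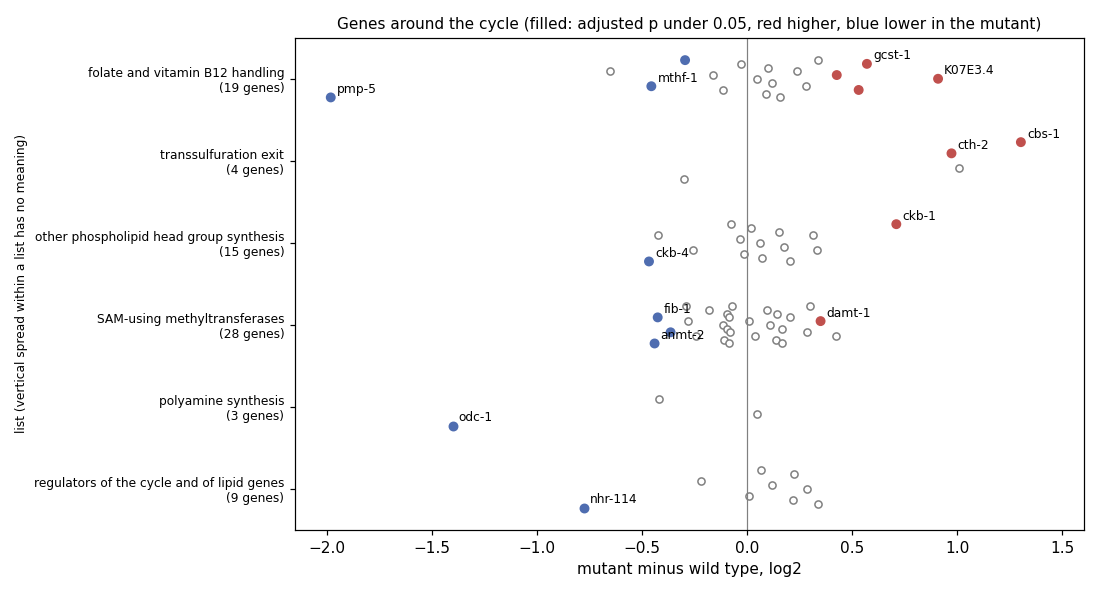
Log2 difference, mutant less wild type (x axis), for the measured genes of 6 lists around the cycle (y axis), with filled points at an adjusted p under 0.05, red where higher and blue where lower in the mutant. Transsulfuration genes cbs-1 and cth-2 lie to the right, and odc-1, nhr-114, pmp-5 and mthf-1 to the left.

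Leaving out wild-type replicate 5 lowered the median spread within the wild type. The median SD of the 11 probe sets was 0.195 over the 5 wild-type arrays and 0.0396 without replicate 5, against 0.206 and 0.151 for all probe sets. In the mutant it was 0.129, against 0.175 for all probe sets. Apart from sams-5, the 11 probe sets were brighter than the array medians. No spread was taken for probe sets of matched brightness, so these values do not set the 11 apart. The array of wild-type replicate 5 stood away from its group on 7 of the 11 probe sets, not on those of ahcy-1, mel-32 and sams-4. Mutant replicate 3 was the highest of its group on 9 of the 11 probe sets, those of sams-5 and pmt-1 being the exceptions. The matching share over all probe sets was not taken.

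**Figure D5:**
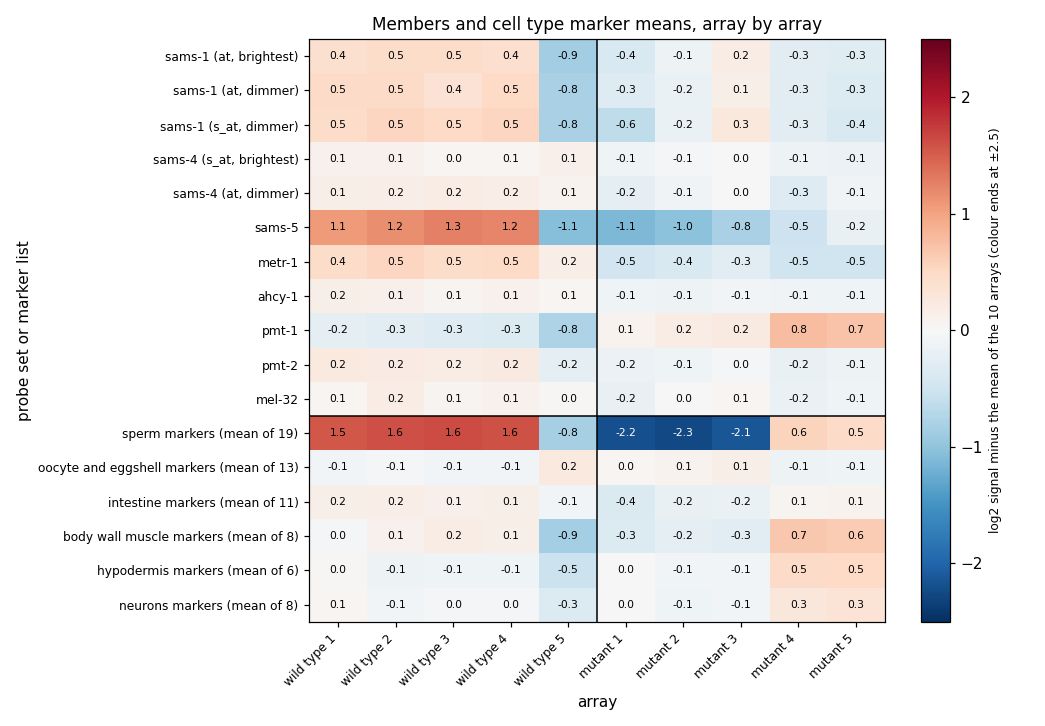
Log2 signal of each of the 11 probe sets and of the mean of 6 marker lists (y axis) minus its mean over the 10 arrays, by array (x axis), with red higher and blue lower. Wild-type replicate 5 is low for sams-1, sams-5 and the sperm, muscle and hypodermis markers, while metr-1, ahcy-1 and sams-4 on that array stay on the wild-type side of their mean.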

How the data were processed

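The deposited table holds 1 value per probe set and array for 10 arrays. Their log2 scale was inferred from the values (at most 14.2), because the sources used here do not give the scale or the background correction and normalization by the authors. Array medians differed by 0.387, below the 0.5 set for quantile normalization, so values were used as deposited. After 77 control probe sets were left out, 22548 were fitted in R 4.3.3 by lmFit and eBayes of limma 3.58.1 (2-sided, genotype as the only term). No 2 arrays were duplicates. Gene names came from the platform annotation, updated through RefSeq (WBcel235): 20766 probe sets had 1 gene (20701 matched), 887 several and 895 none listed. No coordinates or sequences are given.

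The members, lists and the choice of arrays that stood apart were made with earlier results of these data known. Genes named outside the members are the called ones with the largest difference, up to 2 per direction and list. Others were named after their values were seen: mrp-5, dao-3, mtrr-1, gldc-1, gcsh-1, gcsh-2, dph-5, cth-1, pcyt-1, smd-1 and sbp-1. Planned pairs with sams-3 or gnmt-1 had no value. The tests were checked on simulated data with independent noise on each probe set and array. No simulated array stood apart, so that check does not cover the effect of such arrays. The number of arrays limits the precision.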

Additional observations from a re-analysis of the deposited data

Results flagged for a closer look

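In 72 groups of 5 arrays, 25 had 1 array whose gap to its nearest neighbour was over 0.71 of the group's range. Chance gives about 5% for a single group. The groups reuse the same arrays, and some reuse the same genes, so the count of 25 cannot be tested against that 5%. The share of all probe sets with such a gap was not taken. The count therefore does not set the genes named here apart from others. All but 1 of the 25 were wild-type replicate 5, an array that stood apart across the genome. Among the genes described here it was lowest on the 3 sams-1 probe sets (gap 0.961, 0.884 and 0.935 of the range), sams-5 (0.919), metr-1 (0.751), pmt-1 (0.813) and pmt-2 (0.883). It was also lowest for the within-array differences sams-1 minus sams-4 (0.922) and metr-1 minus mel-32 (0.859), and highest for sams-1 minus sams-5 (0.864) and metr-1 minus sams-1 (0.917).

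Of the neighbouring genes it was lowest for K07E3.4 (0.786), pmp-5 (0.884), mthf-1 (0.864), cth-2 (0.716), fib-1 (0.862), odc-1 (0.953) and nhr-114 (0.861), and highest for cbs-1 (0.754). Among marker means it was lowest for sperm (0.967), intestine (0.887), body wall muscle (0.775) and hypodermis (0.741), and highest for oocyte and eggshell (0.93). The remaining case was mutant replicate 1, lowest for cth-2 (0.796).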

How the results depend on the processing

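No difference of a member changed sign under any alternative, and metr-1 fell in all of them. The count of member genes that fell, 2 over all arrays, was 2 under quantile normalization and centring (sams-5 in place of ahcy-1), 4 without the dimmest 33% or 50% of probe sets, 4 with an intensity trend, 4 with the mean of a gene's probe sets, 5 with array weights, 4 without the 4 arrays that stood apart, and 1 to 5 with 1 array left out (5 without wild-type replicate 5, 1 in each other case). Same-numbered arrays did not deviate together (correlations −0.175 to 0.0981), so no pairing by number was seen. These correlations cannot exclude a pairing, and the labels give only a replicate number. The replicate block left 1 that fell (metr-1) and 0 that rose (limma, 1 at an unadjusted p under 0.05; pmt-1 adjusted p = 0.0654). For the pairs, a sign-flip test of same-numbered arrays cannot go below 0.0625, so no change of −0.49, −0.64, −0.67, 1.04, 1.11 or −0.18 could pass with this replicate block. Likewise 3 against 3 arrays cannot go below 0.1; without the 4 arrays the changes were 0.79 for pmt-1 minus pmt-2, 1.65 for sams-1 minus sams-5, and −0.32, −0.67 and −0.71 for metr-1 minus sams-1, ahcy-1 and mel-32. With 1 array left out the pairs ranged over 0.93 to 1.11, 1.00 to 1.30, −0.55 to −0.30, −0.70 to −0.62, −0.72 to −0.65 and, for sams-1 minus sams-4, −0.45 to −0.10. Called genes in the folate and B12 list (7) were 13 with array weights, 3 with the replicate block and 4 to 10 with 1 array left out. In the phospholipid list (2) they were 4 without the dimmest 50%, with the trend or with array weights, 1 with the block and 1 to 2 with 1 array left out. Among methyltransferases (4) they were 7 and 9 without the dimmest 33% and 50%, 7 with the trend, 10 with array weights, 0 with the block (limma, 8 at an unadjusted p under 0.05) and 0 to 4 with 1 array left out (0 without mutant replicate 2 or 3 or wild-type replicate 2, 3 or 4). In the polyamine list (1) they were 2 under quantile normalization, centring, both dim filters, array weights, the mean of probe sets and without the 4 arrays, 0 with the block and 0 to 2 with 1 array left out, where 2 of its 3 genes had an unadjusted limma p under 0.05. Among regulators (1) they were 3 with array weights and without the 4 arrays. In the transsulfuration list (2) they were 3 with both dim filters, the trend, array weights, the block and without the 4 arrays. With 1 array left out they were 2 to 3. The cause of these changes was not tested. Shares of all genes that rose or fell are given above for the fit of all arrays. They are also given for the fits lacking wild-type replicate 5 or the 4 arrays. In every other setting such a share was not taken. A higher or lower count there is therefore not shown to be particular to the members or to a list.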

Other observations

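Outside the rule used for the genes above, the array holds other probe sets of the SAM synthetase family. A probe set annotated to sams-2 and sams-3 together was at 11.40, 11.29, 11.16, 11.31 and 11.03 in wild-type replicates 1 to 5 and at 10.60, 10.71, 10.79, 10.46 and 10.44 in the mutant replicates. The groups did not overlap, and the difference was −0.64 (SE 0.10, 1.56-fold lower, limma adjusted p = 0.00202, exact permutation p = 0.00794). Which of the 2 genes gave the signal cannot be told apart. A probe set annotated to sams-2 alone, which RefSeq lists as a pseudogene and whose suffix marks probes open to cross-hybridisation, fell by 0.55 (SE 0.10, limma adjusted p = 0.00671), also with every mutant array below every wild-type array. Both differences remained past the threshold without wild-type replicate 5 (−0.69 and −0.62, limma adjusted p = 0.00112 and 0.00133).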
